A study of Mus musculus with 15 samples.

Results

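The YAP program was followed here through 10 genes: the YAP/TEAD target genes Ccn2, Ccn1, Ankrd1, Amotl2, Fhl2 and Axl, the kinase gene Lats2, the co-activator genes Yap1 and Wwtr1, and the transcription factor gene Tead1. Members were taken as every probe set whose annotation gave 1 of these symbols alone, synonyms included (Ctgf for Ccn2, Cyr61 for Ccn1), which gave 24 of 45101 probe sets, or 10 of 18194 genes with a probe set of 1 symbol. Of the 24 probe sets, 21 were tested and covered 9 genes. Both Axl probe sets and 1 of 6 Lats2 probe sets behaved as array background and were left out of the fit.

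The study took primary hepatocytes of C57BL/6 mice, all male, measured their RNA on Affymetrix expression arrays and asked how the culture vessel affects them. Cells were used freshly isolated, as flat monolayers on tissue culture dishes (TCD) for 4 h or 24 h, or as three-dimensional aggregates in rotating wall vessels (RWV) for 4 h or 24 h. Each of the 5 groups had 3 arrays, described in the study design as independent biological replicates. No group carried an engineered allele or a drug, and the vessel changed cell shape, substrate contact and fluid motion together, so these cannot be told apart. Values are deposited log2 values from which the median of the 3 fresh arrays had been subtracted in each probe set, so every value below is a log2 difference from fresh cells and gives no absolute level.

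The Hippo pathway is a kinase cascade in which STK3 and STK4 activate LATS1 and LATS2, and the LATS kinases phosphorylate YAP1 and its paralogue WWTR1 (also called TAZ), which keeps both out of the nucleus. When the kinases are inactive, for example in cells that spread on a stiff surface, YAP1 and WWTR1 enter the nucleus, bind TEAD transcription factors and raise the transcription of genes such as Ccn2, Ccn1 and Ankrd1. LATS2 and AMOTL2 restrain YAP1, and their genes are themselves YAP targets, which makes a negative feedback. In adult liver YAP activity is normally low in hepatocytes and higher in bile duct cells.

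Promoters of 3 target genes are shown because Ankrd1, Fhl2 and Ccn1 carried differences between the vessels. RefSeq windows of 300 bases, 250 before and 50 after the transcription start on mouse build GRCm38.p6, were taken for 8 of the 10 members, all but Ccn2 and Tead1. Each is written 5′ to 3′ on the gene's own strand, with capitals marking the TEAD core motif GGAATG (read as CATTCC where it lies on the opposite strand) or, in Fhl2, a CArG box, the site of serum response factor. The Ankrd1 window is chr19:36119795-36120094, the Ccn1 window is chr3:145649936-145650235, and the Fhl2 windows are chr1:43196712-43197011 and chr1:43163912-43164211, all on the minus strand.
Ankrd1: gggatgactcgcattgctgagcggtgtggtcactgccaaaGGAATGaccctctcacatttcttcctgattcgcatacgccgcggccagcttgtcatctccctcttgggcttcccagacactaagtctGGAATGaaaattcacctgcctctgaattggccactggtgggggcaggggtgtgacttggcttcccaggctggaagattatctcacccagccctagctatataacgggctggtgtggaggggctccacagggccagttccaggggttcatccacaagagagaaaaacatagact
Ccn1: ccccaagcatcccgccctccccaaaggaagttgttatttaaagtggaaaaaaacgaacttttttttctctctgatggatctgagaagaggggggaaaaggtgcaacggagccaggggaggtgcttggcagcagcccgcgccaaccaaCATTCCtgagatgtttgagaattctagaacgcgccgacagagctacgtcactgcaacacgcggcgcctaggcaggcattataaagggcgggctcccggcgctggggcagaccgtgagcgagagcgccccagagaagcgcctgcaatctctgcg
Fhl2 window 1: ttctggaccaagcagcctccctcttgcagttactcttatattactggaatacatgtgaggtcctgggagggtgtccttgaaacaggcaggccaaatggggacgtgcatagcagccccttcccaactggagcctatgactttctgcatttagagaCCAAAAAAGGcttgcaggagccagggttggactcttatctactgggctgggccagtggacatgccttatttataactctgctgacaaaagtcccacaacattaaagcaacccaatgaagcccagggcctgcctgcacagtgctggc
Fhl2 window 2: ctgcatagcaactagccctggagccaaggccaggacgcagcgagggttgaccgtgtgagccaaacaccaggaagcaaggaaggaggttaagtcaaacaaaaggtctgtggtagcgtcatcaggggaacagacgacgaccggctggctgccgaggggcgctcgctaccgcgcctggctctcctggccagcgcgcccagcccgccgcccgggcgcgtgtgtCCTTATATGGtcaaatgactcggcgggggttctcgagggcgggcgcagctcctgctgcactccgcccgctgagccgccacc

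The Ankrd1 window held the TEAD motif at 2 places, positions -210 to -205 and -123 to -118 counted from the start, and the Ccn1 window held it once, at positions -103 to -98. On either strand, GGAATG was found in 7 of the 8 members with a window (Ccn1, Ankrd1, Amotl2, Axl, Lats2, Yap1 and Wwtr1) and in 14.7% of all 32851 windows of this length. Both Fhl2 windows held a CArG box and no TEAD motif, and a CArG box was present in 1.63% of all windows. The AP-1 motif TGANTCA was in no member window and in 7.81% of all windows. A window holds only the letters next to the start, and distal enhancers were not searched.

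**Figure D1:**
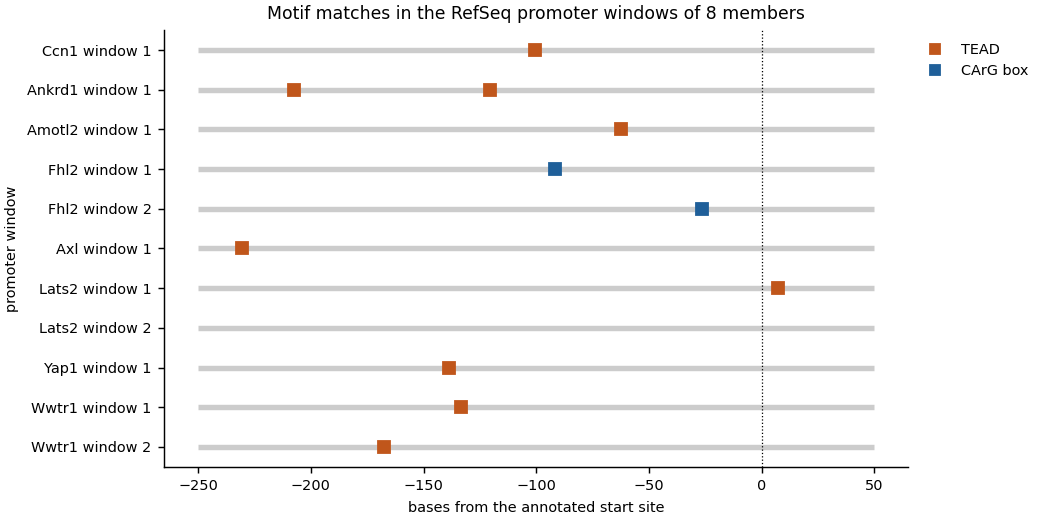
Positions of the TEAD core motif and the CArG box in the RefSeq promoter windows of 8 members; the horizontal axis is the distance in bases from the transcription start, each line is 1 window, and symbols mark motifs on either strand. Ankrd1 has 2 TEAD motifs before its start and both Fhl2 windows have a CArG box.

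Array medians lay between -0.08 and 0.08 on the log2 scale. TCD 4 h replicate 2 stood apart: the median of its 18 hybridisation controls was 1.08, against -0.73 to 0.18 in the other 14 arrays. The gap between the 3′ and 5′ Actb control probe sets, a sign of RNA integrity, was -0.45 to -0.43 in TCD 24 h and -0.26 to -0.22 in RWV 24 h (log2, relative to fresh), while the Gapdh gap was -0.05 to -0.015 and -0.063 to -0.055; the part of RNA quality in the 24 h results was not tested. Of 11 hepatocyte markers tested, 0 differed between vessels at 4 h, beside 5.3% of all genes higher and 0.66% lower in RWV. At 24 h, 1 was called higher in RWV and 3 lower, beside 8.27% and 6.71% of all genes. The higher marker was Hnf4a (1.37 ± 0.226). The lower ones were Pck1 (-4.26 ± 0.346), Cps1 (-1.55 ± 0.346) and Cyp2e1 (-0.41 ± 0.0899). The mean of the 11 markers lay between -1.92 and -1.71 in TCD 24 h and between -2.49 and -2.23 in RWV 24 h. Within that mean, Pck1 alone had group means of -6.66 in TCD 24 h and -10.93 in RWV 24 h.

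At 24 h, 3 of the targets were lower in the rotating vessel than in the dish, and none of Yap1, Wwtr1 and Tead1 was called. The called members were Ccn2, Ankrd1 and Fhl2, all lower in RWV and 3 of the 9 genes read from 1 representative probe set each (the one with the largest spread over the 15 arrays). Over all 12423 genes read the same way, 6.71% were lower and 8.27% were higher in RWV at 24 h. The median log2 difference over the 9 members was -0.72, and over all genes it was 0.00. Ankrd1 entered the fit only through TCD 24 h, the group where it was high, so its call adds no separate support. A call means a Benjamini-Hochberg adjusted p under 0.05 from limma, fitted on all 15 arrays and adjusted over all 25429 probe sets tested. Yap1 differed by -0.09 between vessels, and its 95% interval of -0.74 to 0.56 leaves room for a modest difference either way.

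**Figure D2:**
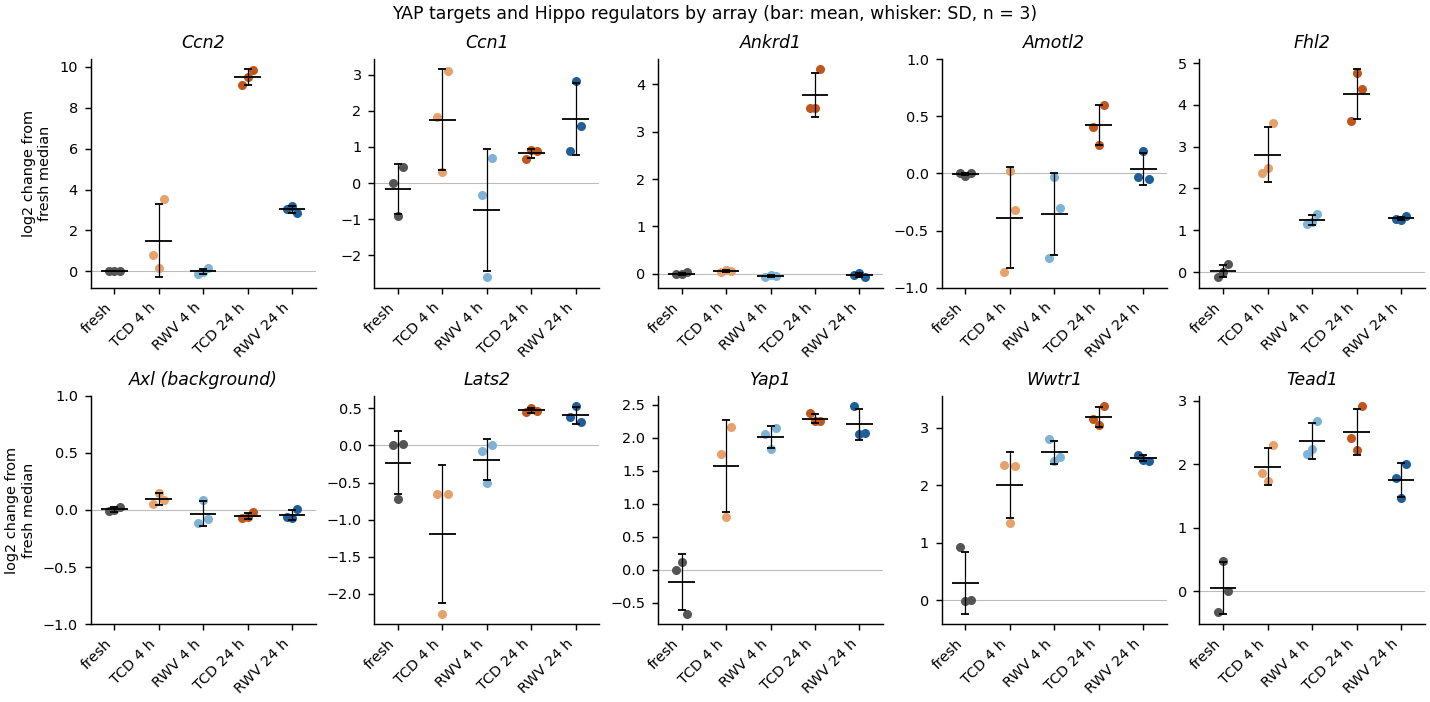
Log2 value relative to fresh cells of each member's representative probe set on every array, 1 panel per gene, with the groups on the horizontal axis, 1 point per array and a line at the group mean. Ccn2, Ankrd1 and Fhl2 are highest on all 3 TCD 24 h arrays, while Yap1, Wwtr1 and Tead1 lie above fresh cells on every cultured array.

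Ccn2 encodes a secreted matricellular protein, is widely read as a YAP reporter, and had the largest range of group means among the members, 9.47 log2 units. Its values were 0.00, 0.01 and 0.00 in the 3 fresh arrays, -0.11, -0.02 and 0.15 in RWV 4 h, and 3.06, 3.18 and 2.84 in RWV 24 h. In the dish they were 0.82, 0.16 and 3.55 at 4 h and 9.09, 9.49 and 9.86 at 24 h. All TCD 24 h arrays thus lay above all other arrays, RWV 24 h lay above fresh and RWV 4 h, and TCD 4 h spread so widely that it overlapped RWV 24 h.

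At 24 h Ccn2 was 87.4-fold lower in RWV than in TCD (log2 difference -6.45 ± 0.622 SE, n = 3 arrays per group, limma adjusted p = 4.29e-05). It still rose within the rotating vessel from 4 h to 24 h, by 3.02 ± 0.622 (adjusted p = 0.00214), against 7.97 ± 0.622 in the dish (adjusted p = 6.97e-07). The difference between vessels was larger at 24 h than at 4 h, with an interaction of -4.95 ± 0.88 (adjusted p = 0.005). At 4 h the difference of -1.50 (95% interval -2.86 to -0.15) was not called (limma adjusted p = 0.211). The rise in TCD 4 h against fresh, 1.51, was not called (adjusted p = 0.114), but was 2.18 with adjusted p = 0.0188 without TCD 4 h replicate 2. That fit keeps TCD 4 h values of 0.82 and 3.55, so the rise depends largely on replicate 3. Hepatocytes, stellate cells and bile duct cells can all express Ccn2, and in bulk RNA fewer cells of a type and less RNA per cell cannot be told apart.

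Ankrd1 encodes a nuclear ankyrin repeat protein of striated muscle and stressed cells. Its first probe set read 3.50, 3.50 and 4.31 on the TCD 24 h arrays and between -0.07 and 0.08 on the other 12 arrays. The second read 2.87, 3.7 and 3.80 in TCD 24 h and between -0.09 and 0.09 elsewhere. Ankrd1 was therefore above the remaining arrays in 1 group alone, with no overlap on either probe set. RWV minus TCD at 24 h was -3.79 ± 0.166 (adjusted p = 9.57e-08) on the first and -3.51 ± 0.181 (adjusted p = 3.41e-07) on the second. Outside TCD 24 h, both probe sets followed the array background, with r of 0.91 and 0.96 over 12 arrays that share a normalisation. The size of the fold therefore depends on where the background correction put the floor. Both probe sets passed the background filter only through TCD 24 h. The SE pools near-constant arrays at the floor with TCD 24 h, where the SD was 0.46 and 0.51, so the adjusted p depends on that floor too. Over 21 alternative settings the limma adjusted p at 24 h reached 0.00361 and 0.00476.

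Fhl2 encodes a LIM-domain cofactor of transcription and of the actin-linked serum response. It read -0.11, 0.00 and 0.19 in fresh cells, 2.37, 2.50 and 3.56 in TCD 4 h, and 3.61, 4.77 and 4.39 in TCD 24 h. In the rotating vessel it read 1.16, 1.21 and 1.38 at 4 h and 1.28, 1.24 and 1.33 at 24 h. The dish arrays lay above the vessel arrays at each time without overlap, and the vessel arrays at 4 h and 24 h overlapped each other.

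Fhl2 was lower in RWV at both times, by -1.56 ± 0.306 at 4 h (adjusted p = 0.0136) and -2.97 ± 0.306 at 24 h (adjusted p = 6.92e-05). Without TCD 4 h replicate 2 the 4 h difference was -1.72 (adjusted p = 0.0232). Fhl2 was the only member called at 4 h on its representative probe set, where 0.66% of all genes were lower and 5.3% were higher in RWV. The 4 h call was lost when the fit held the 6 arrays compared alone (adjusted p = 0.14). From 4 h to 24 h Fhl2 rose by 1.45 ± 0.306 in the dish (adjusted p = 0.00174) and differed by 0.04 in the vessel (95% interval -0.63 to 0.70). Its vessel difference at 24 h exceeded that at 4 h by -1.41, which did not pass the test (adjusted p = 0.0595). With the replicate number as a block in the fit, the same difference was called (limma adjusted p = 0.0338).

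Ccn1, a secreted matricellular relative of Ccn2, was measured by 4 probe sets that fell into 2 pairs. The pair 1438133_a_at and 1416039_x_at read 1.75 to 2.78 in TCD 4 h and -1.37 to 0.89 in RWV 4 h, without overlap. Both were lower in RWV at 4 h, by -2.47 ± 0.454 (adjusted p = 0.0105) and -2.63 ± 0.406 (adjusted p = 0.00471). At 24 h they differed by -1.43 (adjusted p = 0.0601) and -1.37 (adjusted p = 0.0446), on either side of the threshold. The 4 h calls held without TCD 4 h replicate 2 (-2.75 and -2.77) and were lost with the 6 arrays compared alone (adjusted p = 0.189 and 0.13), and the single 24 h call was lost in 13 of 21 alternative settings.

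The other pair, 1442340_x_at and 1457823_at, which were designed on the same sequence, was called in neither vessel comparison. At 24 h its RWV minus TCD values were 0.95 (95% interval -0.89 to 2.79) and 0.88 (-0.91 to 2.67), and RWV 24 h replicate 2 alone read 2.84 and 2.74 there. The representative probe set by spread, 1442340_x_at, belongs to this pair. It rose from 4 h to 24 h in the vessel by 2.52 ± 0.841 (adjusted p = 0.034), but not without RWV 24 h replicate 2 (1.99, adjusted p = 0.131) or RWV 4 h replicate 2 (1.59, adjusted p = 0.146). The 4 h difference of 1442340_x_at, -2.49, had the sign of the first pair and did not pass the test (adjusted p = 0.125).

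**Figure D3:**
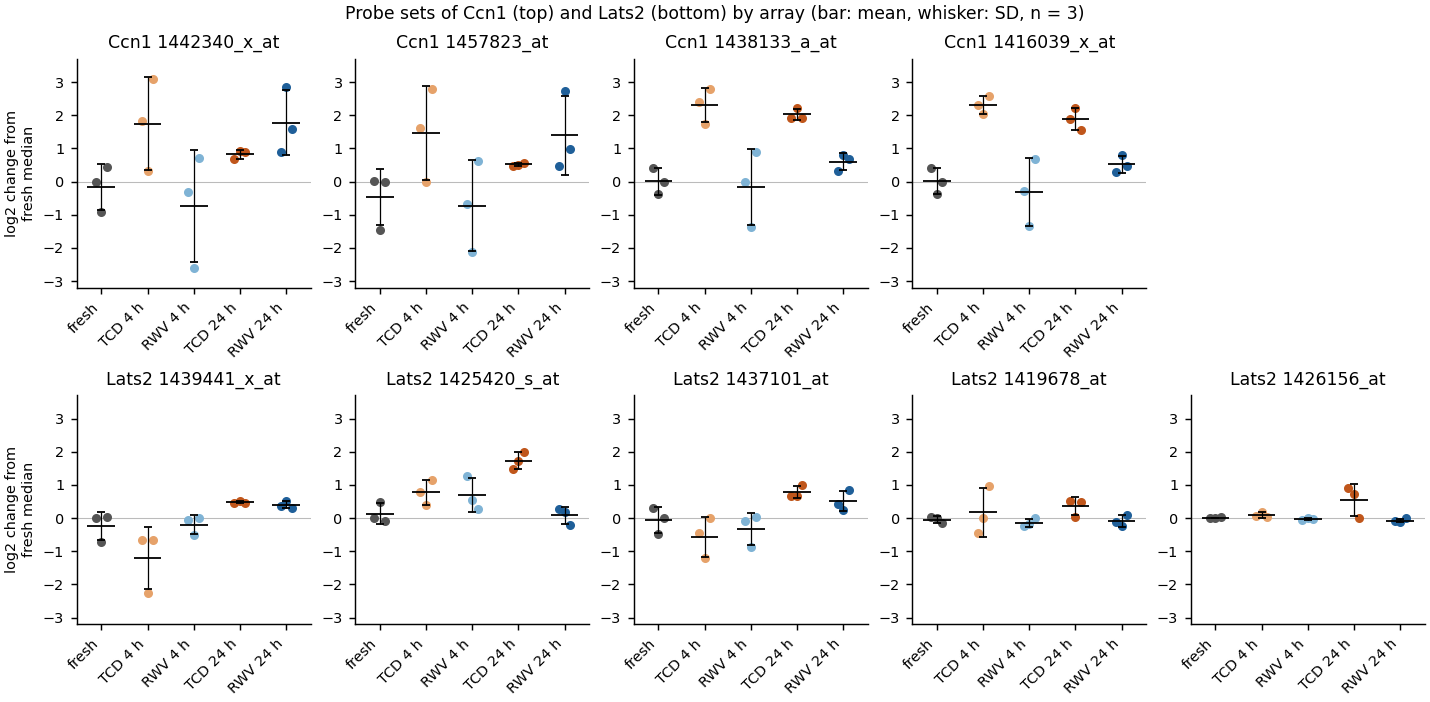
Log2 values relative to fresh cells of the 4 Ccn1 and the 5 tested Lats2 probe sets, with 1 panel per probe set, groups on the horizontal axis and 1 point per array. Among the Ccn1 probe sets, 1438133_a_at and 1416039_x_at separate TCD from RWV at 4 h, and among the Lats2 probe sets 1425420_s_at separates them at 24 h.

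Amotl2 encodes an angiomotin that anchors YAP at cell junctions. It read 0.41, 0.25 and 0.60 in TCD 24 h and -0.03, 0.20 and -0.05 in RWV 24 h, groups that did not overlap. The difference of -0.38 (95% interval -0.84 to 0.08) was not called (adjusted p = 0.312). Amotl2 rose in the dish from 4 h to 24 h by 0.80 ± 0.211 (adjusted p = 0.00713), and by 0.17 (adjusted p = 0.542) once each array was centred on reference genes. Without TCD 4 h replicate 2 the rise was 1.01 (adjusted p = 0.0018). Axl, a receptor tyrosine kinase, lay between -0.11 and 0.15 on all 15 arrays and followed the array background (r of 0.82 and 0.99 over the 15 arrays), so it was not detectable on these arrays in any group.

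Lats2, the kinase that is also a target, gave 5 tested probe sets with different patterns. The probe set 1425420_s_at read 1.48, 1.73 and 1.98 in TCD 24 h and 0.27, 0.18 and -0.20 in RWV 24 h. It was lower in RWV by -1.65 ± 0.272 at 24 h (adjusted p = 0.00171), with an interaction of -1.58 ± 0.385 (adjusted p = 0.0235). The 24 h call held in all 21 alternative settings, while the interaction lost its call without TCD 24 h replicate 2 (-1.58, adjusted p = 0.051), TCD 24 h replicate 3 (-1.45, adjusted p = 0.0609) or RWV 24 h replicate 3 (-1.43, adjusted p = 0.0572). A second probe set, 1426156_at, was lower by -0.62 ± 0.177 (adjusted p = 0.037), but its TCD 24 h arrays read 0.92, 0.73 and -0.01 and the call was lost in 13 of 21 settings. Outside TCD 24 h, 1426156_at followed the array background (r = 0.82 over 12 arrays), so it passed the background filter only through that group. The representative 1439441_x_at differed by -0.07 (95% interval -0.86 to 0.72), and its RWV 24 h arrays (0.31 to 0.53) spanned its TCD 24 h arrays (0.45 to 0.51). From 4 h to 24 h in the dish, 4 of the 5 rose, 1439441_x_at by 1.67 ± 0.36 (adjusted p = 0.00202); that probe set read -2.27 in TCD 4 h replicate 2 and -0.66 and -0.65 in the other TCD 4 h arrays, and without replicate 2 it rose by 1.13 (adjusted p = 0.00103). Which transcripts each probe set reads was not resolved here.

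The co-activator genes Yap1 and Wwtr1 were higher in culture on their representative probe sets in either vessel. Yap1 (1416487_a_at) read 0.00, 0.12 and -0.67 in fresh cells, 1.75, 0.80 and 2.17 in TCD 4 h, 2.06, 1.83 and 2.15 in RWV 4 h, 2.37, 2.25 and 2.25 in TCD 24 h, and 2.48, 2.06 and 2.07 in RWV 24 h. Every cultured array lay above every fresh array, and the cultured groups overlapped between vessels at each time. Against fresh cells Yap1 was higher by 1.76 in TCD 4 h (adjusted p = 0.00114), 2.20 in RWV 4 h (adjusted p = 0.000189), 2.48 in TCD 24 h (adjusted p = 1.67e-05) and 2.38 in RWV 24 h (adjusted p = 3.38e-05), each ± 0.296 SE. These 4 comparisons share the fresh arrays. Without TCD 4 h replicate 2 the TCD 4 h value was 2.14 (adjusted p = 6.84e-05), and it lost its call with the 6 arrays compared alone (adjusted p = 0.0673). The second Yap1 probe set, 1448363_at, had a smaller range and was higher than in fresh cells in RWV 4 h, TCD 24 h and RWV 24 h (0.57, 0.41 and 0.54) but not called in TCD 4 h (0.07, adjusted p = 0.762). It was higher in RWV than in TCD at 4 h, by 0.49 ± 0.124 (adjusted p = 0.0412). This call was lost in 11 of 21 settings, among them without TCD 4 h replicate 2 (0.40, adjusted p = 0.13) and after centring on reference genes (0.23, adjusted p = 0.217).

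Wwtr1 (1417817_a_at) read 0.93, -0.01 and 0.00 in fresh cells, 2.35, 1.34 and 2.33 in TCD 4 h and 2.80, 2.43 and 2.49 in RWV 4 h. At 24 h it read 3.15, 3.05 and 3.38 in TCD and 2.53, 2.45 and 2.43 in RWV. The dish was below the vessel at 4 h and above it at 24 h, without overlap at either time. Neither difference passed the test, at 0.57 (95% interval -0.05 to 1.19, adjusted p = 0.305) and -0.72 (95% interval -1.34 to -0.10, adjusted p = 0.129). The 24 h difference was called when the fit held the 6 arrays compared alone (adjusted p = 0.013) or left out TCD 4 h replicate 2 (adjusted p = 0.0449). Array weights also gave a call at 24 h (limma adjusted p = 0.0224). All 3 Wwtr1 probe sets were higher in each cultured group than in fresh cells, from 1.70 in TCD 4 h to 2.89 in TCD 24 h on the representative. The TCD 4 h value was 2.04 without TCD 4 h replicate 2 (adjusted p = 0.00015) and was not called with the 6 arrays compared alone (adjusted p = 0.0674).

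Tead1 encodes the DNA-binding partner of both co-activators. Its representative 1429556_at read -0.33, 0.48 and 0.00 in fresh cells, 1.86, 1.74 and 2.30 in TCD 4 h, 2.16, 2.24 and 2.69 in RWV 4 h, 2.41, 2.22 and 2.92 in TCD 24 h and 1.78, 1.47 and 2 in RWV 24 h. It was higher than in fresh cells in all 4 cultured groups, by 1.92, 2.31, 2.47 and 1.70 (each ± 0.25 SE, adjusted p from 3.94e-06 to 0.000165), and by 2.03 in TCD 4 h without replicate 2 of that group. The 24 h arrays did not overlap between vessels, and the difference of -0.77 (95% interval -1.31 to -0.22) had an adjusted p of 0.0653. The second Tead1 probe set, 1423434_at, was higher than in fresh cells in TCD 4 h, RWV 4 h and TCD 24 h (1.24, 1.30 and 1.10) but was not called in RWV 24 h (0.40, 95% interval -0.28 to 1.08, adjusted p = 0.343). It fell from 4 h to 24 h in the vessel by -0.90 ± 0.313 (adjusted p = 0.0407), and on the representative the change there, -0.61, was not called (adjusted p = 0.0772). The vessel difference of the representative at 24 h was called without fresh replicate 2 (adjusted p = 0.047) and with array weights (adjusted p = 0.0258). The replicate number as a block in the fit also gave a call (limma adjusted p = 0.0307), as did the mean of both probe sets (adjusted p = 0.0182).

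**Figure D4:**
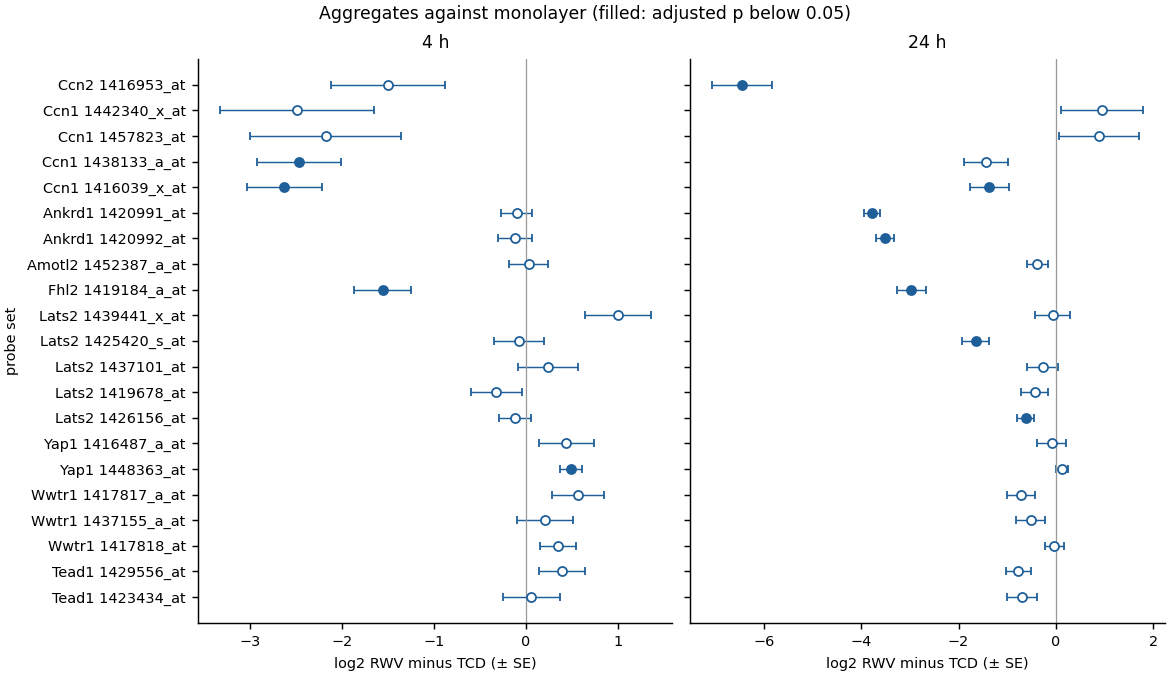
Log2 difference RWV minus TCD of each tested member probe set at 4 h and at 24 h, with bars of ± SE from limma. Filled points passed the adjusted threshold. Ccn2 (-6.45), Ankrd1 (-3.79) and Fhl2 (-2.97) lie farthest below 0 at 24 h, while Yap1 (-0.09) lies next to 0.

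In the main fit, every call of a member against fresh cells was a rise. At 4 h, 4 of 9 genes were higher in TCD and 4 in RWV, in each Fhl2, Yap1, Wwtr1 and Tead1, beside 9.31% and 14.9% of all genes. At 24 h, 6 of 9 were higher in TCD, with Ccn2 and Ankrd1 added, and 5 in RWV, with Ccn2 added, beside 32.6% and 30.5% of all genes. No member was lower in TCD 24 h than in fresh cells, beside 23.3% of all genes. Some alternative settings called falls in other groups. Lats2 was lower in TCD 4 h with the replicate block (-0.96), with centring (-1.06) and without TCD 4 h replicate 1 or 3 (-1.22 and -1.23). It was not called without replicate 2 (-0.42). Amotl2 was lower in TCD 4 h with array weights (-0.7) and in RWV 4 h with centring (-0.72). Centring also called Ankrd1 lower in RWV 24 h (-0.6). Within the dish 6 of 9 rose from 4 h to 24 h (Ccn2, Ankrd1, Amotl2, Fhl2, Lats2 and Wwtr1), beside 35.8% of all genes, and within the vessel 2 of 9 rose (Ccn2 and Ccn1), beside 26.1%. The interaction of vessel and time was called lower for 2 of 9, Ccn2 and Ankrd1, beside 7.33% of all genes lower and 4.77% higher. Of these, Ankrd1 entered the fit only through TCD 24 h. With the replicate number as a block in the fit the interaction was called lower for 5 of 9, with Fhl2, Wwtr1 and Tead1 added. That fit called 3194 of all probe sets for the interaction in place of 2631. Without TCD 4 h replicate 2 the counts became 1 at 4 h between vessels, 4 at 24 h (Wwtr1 added, lower), 3 for the interaction (2 lower and Ccn1 added, higher by 4.16 on its representative), 5 and 4 against fresh at 4 h, 7 and 6 against fresh at 24 h, and 6 and 3 from 4 h to 24 h.

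On the representative probe sets TCD 24 h was the highest group for all tested members but Ccn1, and fresh cells were the lowest group for Ccn2, Fhl2, Yap1, Wwtr1 and Tead1. Between neighbouring groups in that order, Ccn2 did not overlap from RWV 24 h to TCD 24 h, and Fhl2 overlapped only between RWV 4 h and RWV 24 h. Yap1 overlapped between every pair of neighbouring cultured groups. Over the 15 arrays, r was 0.93 for Ccn2 with Ankrd1, 0.83 for Ccn2 with Fhl2, 0.95 for Yap1 with Wwtr1 and 0.89 for Yap1 with Tead1; the arrays share groups, so these describe the 5 group means more than single arrays.

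The other genes of the cascade were read from a list of 30 Hippo pathway genes, of which 25 were tested; Tead2, Tead4, Fat4 and Dchs1 were at background. In TCD 24 h against fresh, 15 were higher and 2 lower, beside 32.6% and 23.3% of all genes. With arrays centred on reference genes, which moved the median of all genes by -0.74, the lower count became 9, it was 5 with no background filter, and it was 4 without fresh replicate 3. The largest rises were in Ajuba, a LIM protein that inhibits LATS kinases (4.56 ± 0.855), Stk38l, a LATS-related kinase (3.79 ± 0.134), and Rassf1, a scaffold of the STK kinases (3.74 ± 0.338). The falls were in the TAO kinase genes Taok3 (-1.98 ± 0.264) and Taok1 (-1.75 ± 0.38), though Taok1 turned to 0.63 when its probe sets were averaged. In RWV 24 h against fresh, 14 were higher and 2 lower, beside 30.5% and 19.1% of all genes.

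Between the vessels at 4 h, 3 of 25 pathway genes were higher in RWV and 0 lower, beside 5.3% and 0.66% of all genes (Amot 1.66 ± 0.246, Dlg5 1.53 ± 0.354 and Mob1a 1.36 ± 0.307), with a median over the list of 0.27 against -0.01 over all genes. Amot encodes the founding angiomotin, which holds YAP outside the nucleus, and Mob1a encodes the LATS co-activator. At 24 h, 2 were higher (Wwc1 0.98 ± 0.295 and Taok3 0.93 ± 0.264) and 2 lower (Wtip -1.26 ± 0.355 and Map4k4 -0.89 ± 0.242), with a median of -0.28, beside 8.27% and 6.71% of all genes. With array weights or the 6 arrays compared alone, 5 were lower at 24 h. Centring on reference genes gave 1 lower at 24 h. With no background filter 0 were higher and 0 lower at 24 h, and 7 were higher and 4 lower at 4 h. Leaving out 1 array at a time moved these counts between 1 and 4 higher at 4 h, and between 0 and 2 higher and 0 and 3 lower at 24 h; without TCD 4 h replicate 2 they were 1 higher at 4 h, and 1 higher and 3 lower at 24 h. The 4 h calls were lost when only the 6 arrays compared were fitted.

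Targets outside the members came from a list of 16 further YAP/TEAD target genes, of which 11 were tested; Myof, Foxf2, Ccdc80, Arhgef17 and Rbms3 were at background. At 24 h, 4 were lower in RWV and 0 higher, beside 6.71% and 8.27% of all genes: the growth factor gene Tgfb2 (-3.64 ± 0.376), the binding protein gene Igfbp3 (-2.16 ± 0.482), the phosphatase gene Ptpn14 (-1.27 ± 0.173) and Dock5, which encodes an activator of Rac (-1.24 ± 0.198). The median over the 11 was -0.61. Tgfb2, like Ankrd1, had a group mean of 3.61 in TCD 24 h and between -0.11 and 0.08 in the other 4 groups. Igfbp3 had a group mean of 1.99 in TCD 24 h and between -0.17 and 0.31 in the others. Whether these genes followed the array background outside TCD 24 h was not tested. Where they did, the fold, SE and call depend on the floor, as for Ankrd1. At 4 h, 1 was lower, the tissue factor gene F3 (-2.75 ± 0.556, adjusted p = 0.016, and -3.08, adjusted p = 0.023, without TCD 4 h replicate 2). Leaving out 1 array at a time gave 4 or 5 lower at 24 h and 0 to 2 at 4 h, where the count was 0 without RWV 4 h replicate 1 or replicate 2.

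In TCD 24 h against fresh, 7 of these 11 targets were higher and 1 lower, and in RWV 24 h 5 were higher and 1 lower, with the shares of all genes as given for the pathway list. The lower count in TCD 24 h became 2 with centring and 3 with no background filter. Ptpn14 rose most in the dish (7.31 ± 0.173), and its group means of 5.61 and 5.85 at 4 h in TCD and RWV lay well above fresh cells in both vessels. F3 rose by 3.36 ± 0.556. The gene that fell was Nuak2, an AMPK-related kinase (-3.34 ± 0.383), whose group means lay between -3.90 and -3.23 in all 4 cultured groups.

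**Figure D5:**
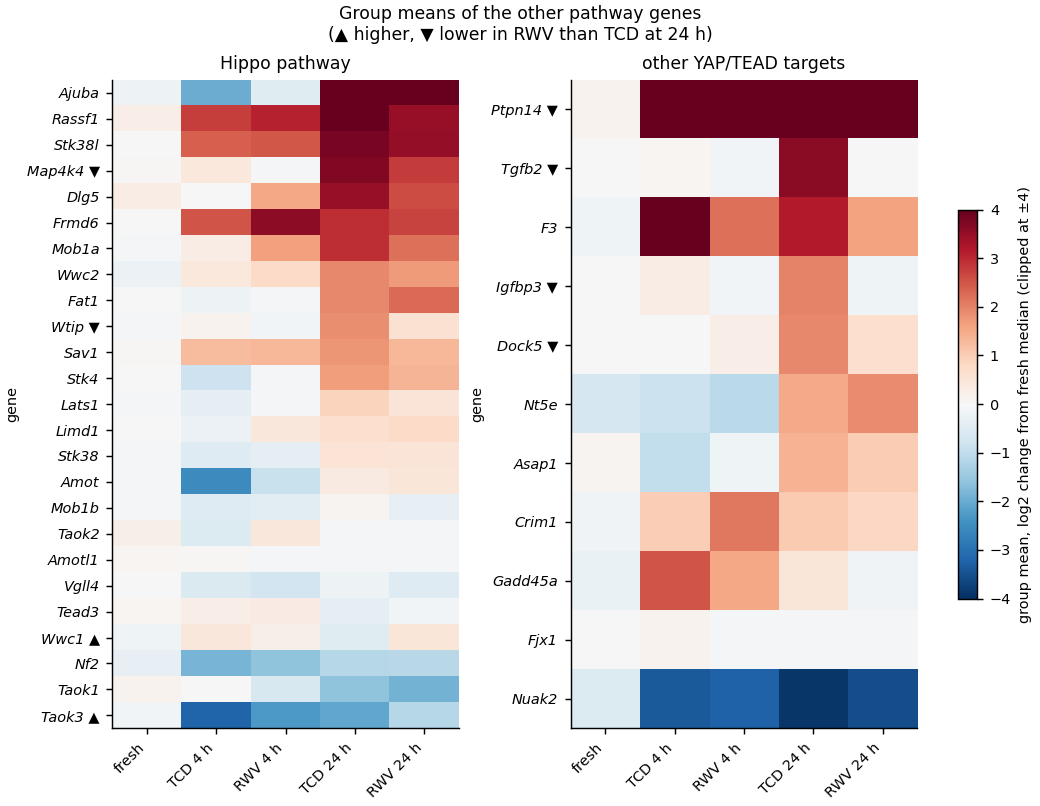
Heatmap of group means (log2 change from the fresh median, colours clipped at both ends) for each tested gene of the Hippo pathway list and of the list of other YAP/TEAD targets. Rows are genes and columns are the groups. Triangles mark genes called higher (▲) or lower (▼) in RWV than in TCD at 24 h. The called targets are all marked lower, while the called pathway genes are marked both ways.

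Some markers of other liver cells differed between the vessels at 24 h, where 6.71% of all genes were lower and 8.27% higher in RWV. Of 3 tested bile duct markers, 2 were lower in RWV at 24 h, Krt19 (-4.31 ± 0.456) and Epcam (-1.11 ± 0.236). The remaining marker, Sox9 (-1.85 ± 0.691), was not called, and Krt7 and Cftr were at background. The mean of the 3 tested bile duct markers was 2.74 to 3.97 in TCD 24 h and 0.82 to 1.29 in RWV 24 h. Krt19 had a group mean of 4.24 in TCD 24 h and between -0.07 and 0.04 in the other groups. Its fold, SE and call may therefore depend on the background floor, which was not tested. Sox9 had group means of 7.13 in TCD 4 h and 6.19 in RWV 4 h. Of 6 tested stellate cell markers, 2 were lower, Reln (-4.95 ± 0.419) and Ecm1 (-0.85 ± 0.238), while Des, Pdgfrb, Rgs5 and Dcn differed by 0.01 to 0.08 and were not called. The stellate mean was 1.09 to 1.20 in TCD 24 h and 0.03 to 0.44 in RWV 24 h, with Reln alone at a group mean of 5.69 in TCD 24 h. The defining stellate genes Lrat, Colec11, Col1a1, Col3a1 and Hand2 were at background on all arrays. Endothelial markers gave 1 higher and 1 lower of 6 and Kupffer cell markers 0 higher and 1 lower of 7 (Cd68, -1.21 ± 0.154), among which Cd5l (1.68), Marco (1.64) and Vsig4 (1.23) had positive values that were not called. The part of other cell types in the target differences was not tested.

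The genes most like Ccn2 over the 15 arrays were Hcfc1r1 (r = 0.972), Tmem60 (0.971), Syce2 (0.966), Serpinb9g (0.965) and Plaur (0.963), the last of which encodes the urokinase receptor. Serpinb9g came closest in size, with group means of 8.58 in TCD 24 h and 2.96 in RWV 24 h, against 9.48 and 3.03 for Ccn2. The genes most like Wwtr1, the regulator with the largest range of group means, were Fam220a (0.982), Inip (0.975), Dyrk3 (0.974), Qser1 (0.971) and Cggbp1 (0.967). All 5 had higher group means in the 4 cultured groups than in fresh cells, as Wwtr1 did.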

How the data were processed

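The data were 15 Affymetrix arrays of mouse hepatocyte RNA. The deposited log2 values had been made by the authors with GCRMA, per the submitters' processing notes, with no version given there. In the values themselves the median of the 3 fresh arrays was 0 in all 45101 probe sets, and log base 2 was assumed because GCRMA writes it. GCRMA estimates background from probe sequence and compresses dim probe sets to a floor, so differences against a group at background depend on that floor. Probe sets were named through the platform annotation: 34945 had 1 symbol, 932 several and 9160 none, beside 64 array controls.

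Probe sets that had an SD under 0.5 and correlated above 0.8 with the per-array median of the probe sets that varied least (the lowest 20%) were called background (19608) and left out. The remaining 25429 were fitted with limma 3.58.1 in R 4.3.3 (lmFit, contrasts.fit and eBayes; 1 mean per group, all 15 arrays), with Benjamini-Hochberg adjustment over all of them and a threshold of 0.05. The fit was tested on simulated data. All 10 members are named; other genes are named by size of change among called list genes (up to 4, 3 and 3 each way at 24 h between vessels, 4 h between vessels, and TCD 24 h against fresh) or as the 5 highest correlations with Ccn2 and Wwtr1. The members and lists were chosen with earlier results of these data known, and the target list was taken from memory of a published YAP/TAZ signature. Alternatives changed the filter, the probe sets per gene, the arrays in the fit, the replicate block, array weights, the centring, the variance prior and each array in turn. Precision is limited by 3 arrays per group.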

Additional observations from a re-analysis of the deposited data

Results flagged for a closer look

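For 4 probe sets of 3 members, the difference between vessels at 24 h itself differed from that at 4 h by a test of the interaction. The interaction was -4.95 for Ccn2 (limma adjusted p = 0.005), -3.69 and -3.39 for the Ankrd1 probe sets (adjusted p = 7.06e-06 and 2.35e-05) and -1.58 for Lats2 1425420_s_at (adjusted p = 0.0235). In each, TCD 24 h was the highest group and all 3 of its arrays lay above all 3 RWV 24 h arrays. For Ankrd1 the other groups lay at the background floor, so its adjusted p values carry the limits given with that gene. The Ccn2 interaction lay between -5.97 and -4.27 over 24 alternative settings and was called in all of them, while the Lats2 interaction lost its call in 3 of 21. Groups of 3 arrays were too small for a check of single outlying arrays.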

How the results depend on the processing

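The 24 h differences between vessels of Ccn2, Ankrd1 and Fhl2 kept their direction and call under all 24 alternatives, between -6.65 and -6.26, -3.93 and -3.53, and -3.29 and -2.72. Ankrd1 passed the background filter only through TCD 24 h, so its stable call carries the limits given with that gene. Over 102 single-gene results, the 24 h differences included, direction and side of the threshold were kept in 826 of 918 cases (29 lost and 45 gained a call) and in 1460 of 1530 with 1 array left out. The sign changed without a call in 17 and 9 cases, and the 1 called result that reversed was Taok1 in TCD 24 h against fresh, 0.63 with the mean of its probe sets, and the cause was not tested. Of the numbers of called members, 67 of 81 stayed within 1.5 times. With no background filter they became 4 at 4 h between vessels, 5 for the interaction and 1 in RWV from 4 h to 24 h. With each gene's probe sets averaged they became 2 at 4 h, 5 at 24 h and 4 for the interaction, and without probe sets of shared sequence 1 in RWV from 4 h to 24 h. With only the arrays compared in the fit they became 0 at 4 h (and 27 over all probe sets in place of 1287) and 2 in TCD 4 h against fresh, where Yap1 and Wwtr1 lost their calls. Array weights gave 2 at 4 h, 5 at 24 h and 6 for the interaction, and centring on 6 reference genes gave 2 at 4 h.

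The replicate number as a block gave 5 called members for the interaction in place of 2 and moved no other number of called members past 1.5 times. The labels do not say whether a number marks a shared isolation, and the main fit did not take the numbers as pairs. All 15 arrays correlated best with an array of their own number. All 3 correlations passed 0.1 in 5 of 10 pairs of groups. An effect shared by arrays of 1 number is thus not modelled in the main fit. At 4 h, where TCD and RWV correlated by number at 0.33, 0.47 and 0.49, the block changed no call of a representative probe set between vessels. The calls added for the interaction were Fhl2, Wwtr1 and Tead1, all lower (-1.41, -1.29 and -1.16).

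Leaving out 1 array at a time gave 1 to 1 called members at 4 h, 3 to 4 at 24 h, 2 to 4 for the interaction (4 without TCD 4 h replicate 3), 4 to 5 and 4 to 4 in TCD and RWV 4 h against fresh, 6 to 7 and 5 to 6 at 24 h, 6 to 8 in TCD from 4 h to 24 h, and 1 to 3 in RWV (1 without RWV 4 h replicate 1 or 2 or RWV 24 h replicate 2 or 3). Over all probe sets, 4 h calls were 1287, or 22561 with no filter, 2247 with centring, and 842, 770 and 607 without RWV 4 h replicate 1, 2 or 3. At 24 h between vessels 3376 became 2219 without TCD 24 h replicate 2 and 2172 without RWV 24 h replicate 2. The interaction gave 2631, or 14450, 7954 and, with weights, 4366. Array weights gave 5426 in place of 3376 at 24 h between vessels, the arrays compared alone 2370 in place of 5401 in TCD 4 h against fresh, and no filter 33080 in place of 12287 in TCD from 4 h to 24 h. Centring gave 15516 in place of 6565 in RWV 4 h, 19797 in place of 12677 in TCD 24 h and 17929 in place of 11133 in RWV 24 h against fresh, and 18807 in TCD from 4 h to 24 h. It moved the median of all genes by -0.74 in TCD 24 h against fresh and by 0.17 in RWV against TCD at 24 h.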
